A study of Homo sapiens with 4 samples.

Results

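The sites described here were the SS18::SSX peaks at promoters that carried no WDR5 peak in HSSY II cells, an SS18::SSX1-positive synovial sarcoma (SS) line. They were chosen by 3 criteria applied to the peak lists of DMSO-treated cells and to GENCODE 44: the peak was in the SS18::SSX list, it shared no base with a WDR5 peak, and its centre fell in a promoter window, from −1000 to +100 bp around a transcription start of a protein-coding or long noncoding RNA (lncRNA) gene. These criteria selected 1866 of the 15141 SS18::SSX peaks. Another 1720 SS18::SSX peaks lay at promoters and did overlap WDR5, 8177 lay away from promoters without WDR5, and 3378 lay away from promoters with it.

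The lists came from CUT&RUN, in which an antibody directs micrococcal nuclease to a chromatin protein and the released DNA is sequenced. The cells had been treated for 4 days with DMSO or with 2.5 μM MS67, a bivalent molecule that brings WDR5 to a ubiquitin ligase for degradation. All of the cells carried the fusion, and mouse NIH-3T3 cells, wild type or carrying H2B-GFP, had been mixed into every sample as a spike-in. There was 1 library for each target and treatment, so no difference below has a replicate check, and the 95% Clopper-Pearson intervals given with shares cover counting error only.

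SS18::SSX joins a subunit of the SWI/SNF (BAF) chromatin remodeler to the C terminus of an SSX protein, and the resulting fusion is the driver of SS. The SSX portion is known to bind nucleosomes that carry the Polycomb mark H2AK119ub, so the fusion is often found over CpG-rich developmental genes. WDR5 is a scaffold subunit of the KMT2 (MLL/SET) complexes that methylate histone H3K4, and ribosomal protein genes are among its best-known direct targets in many cell types.

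A set of 6 sites is shown as DNA sequence to give examples of CpG-poor and CpG-rich windows among sites that were or were not called again with MS67. Each sequence is 200 bases around the peak centre on the plus strand of hg38, with CG dinucleotides in capitals. The first set holds sites with an MS67 SS18::SSX peak, taken from the top of the MS67 −log10 q order among reported sites of genes with a symbol whose window holds no annotated untranslated region, as in all 3 sets. Relative to the nearest start, negative upstream, their centres lie at −803 bp for KCNA7 (6 CG) and −938 bp for HTR2C (9 CG).
KCNA7, chr19:49073402-49073601: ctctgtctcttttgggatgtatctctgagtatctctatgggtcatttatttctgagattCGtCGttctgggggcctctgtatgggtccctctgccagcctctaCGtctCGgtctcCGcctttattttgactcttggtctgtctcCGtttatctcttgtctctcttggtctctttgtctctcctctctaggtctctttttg
HTR2C, chrX:114583040-114583239: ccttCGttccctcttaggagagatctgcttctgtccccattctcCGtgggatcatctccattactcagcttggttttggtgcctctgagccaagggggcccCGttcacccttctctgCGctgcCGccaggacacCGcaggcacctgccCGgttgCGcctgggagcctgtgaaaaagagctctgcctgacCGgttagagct
The next holds the strongest CpG-poor site that had no overlapping MS67 peak, at −451 bp from the start of TPSAB1 (3 CG).
TPSAB1, chr16:1239828-1240027: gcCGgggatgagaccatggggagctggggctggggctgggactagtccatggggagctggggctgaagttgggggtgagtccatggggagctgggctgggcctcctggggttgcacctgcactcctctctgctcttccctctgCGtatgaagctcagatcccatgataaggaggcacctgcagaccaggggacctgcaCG
The third set holds the strongest CpG-rich sites that had no overlapping MS67 peak. They lie at −191 bp for MPLKIP (8 CG), −298 bp for JAKMIP3-AS1 (18 CG), and −283 bp for LINC02614 (13 CG).
MPLKIP, chr7:40134713-40134912: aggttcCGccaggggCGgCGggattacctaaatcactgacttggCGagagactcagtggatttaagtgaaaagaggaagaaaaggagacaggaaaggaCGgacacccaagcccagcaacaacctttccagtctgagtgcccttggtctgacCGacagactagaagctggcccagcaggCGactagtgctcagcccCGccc
JAKMIP3-AS1, chr10:132186160-132186359: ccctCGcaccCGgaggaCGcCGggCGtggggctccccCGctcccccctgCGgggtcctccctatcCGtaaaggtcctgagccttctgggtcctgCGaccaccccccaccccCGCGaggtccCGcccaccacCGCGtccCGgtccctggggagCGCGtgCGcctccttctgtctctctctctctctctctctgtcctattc
LINC02614, chr3:125916066-125916265: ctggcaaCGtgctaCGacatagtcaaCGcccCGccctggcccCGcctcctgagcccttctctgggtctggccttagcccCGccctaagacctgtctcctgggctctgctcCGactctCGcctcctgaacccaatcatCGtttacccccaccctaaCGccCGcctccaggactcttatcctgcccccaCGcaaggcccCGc

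Centres of sites without WDR5 were most frequent close to the nearest start. Taking the nearest of all transcript starts itself favours short distances, and no background of positions was set beside the counts. Of the 1866 sites, 340 (18.2%) had their centre within the first 100 bp downstream, 232 (12.4%) within 100 bp upstream, and 112 (6.0%) in the outermost 100 bp of the promoter window. The median position was −287 bp, against −252.5 bp for the promoter sites with WDR5, and the profiles of the 2 classes had overlapping intervals in every bin. By annotation, 720 centres (38.6%) fell in exons, 664 (35.6%) in introns, and 482 (25.8%) outside genes. The nearest start belonged to a protein-coding gene at 1435 sites (76.9%). At 264 sites (14.1%), starts on both strands shared the site, as at divergent promoters.

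**Figure D1:**
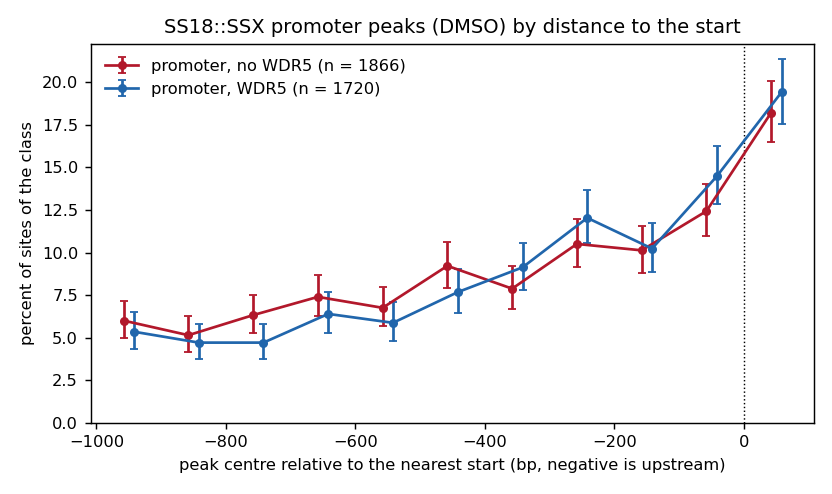
Position of promoter SS18::SSX peaks relative to the nearest transcription start, as the percent of each class in bins of 100 bp; points are shares, and bars are exact 95% intervals. Sites without WDR5 rise from 6.0% in the outermost bin to 18.2% in the bin downstream of the start, and sites with WDR5 follow a similar course.

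The 1866 peaks were modest in size. Their fold enrichment, the summit pileup plus 1 over the local background plus 1, had a median of 4.16 (interquartile range 3.55 to 4.80). Their −log10 q, the significance assigned by the peak caller, had a median of 3.28 and ran from 1.31 to 31.3. The median width was 198 bp. From fold and p-value together, the summit pileup was recovered as a median of 12 fragments over a background of 1.83 fragments. Promoter sites with WDR5 were slightly stronger and wider, with a median fold of 4.47, a median −log10 q of 3.50, and a median width of 234.5 bp. These DMSO values chose the members and are given as description.

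Lack of an overlapping WDR5 peak did not mean that WDR5 was far away. The nearest WDR5 DMSO peak was at a median distance of 863 bp (interquartile range 289 to 3401 bp), and 993 sites (53.2%) had one within 1 kb. At 728 sites (39.0%), a WDR5 peak lay elsewhere in the same promoter window, and at 183 sites (9.81%) within 100 bp. Only 273 sites (14.6%) were more than 10 kb from any WDR5 peak. With a stricter definition that also removes sites with WDR5 within 1 kb, 873 sites remained. At the border of the overlap rule, the sites of HOMER3, NEURL2, and FGF4 touched a WDR5 peak without sharing a base, whereas sites at SESN2, USP25, and the lncRNA ENSG00000289969 shared 1 base with one and were left out. The −log10 q of these 6 peaks was 4.18, 3.38, and 2.15 inside the rule and 4.94, 3.85, and 3.64 outside it. At the upstream limit, C14orf180 (−1000 bp), ADGRA1-AS1 (−999 bp), and GCGR (−998 bp) were the last sites included, and MCF2L, RPL13, and ENSG00000227757, all at −1001 bp, the first left out. At the downstream limit, TRA2B, GPRC5B, and TMEM61 lay at 100 bp, PSMB1 at 101 bp, and AKAP8L and GNG7 at 102 bp.

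The windows were GC rich but held fewer CpG than those of promoter sites with WDR5. Over 300 bp around the centre, the median GC content was 62.3% without WDR5, 64.0% with WDR5, and 57.7% for SS18::SSX peaks away from promoters without WDR5. The median ratio of observed to expected CpG was 0.579, 0.648, and 0.276 in the same order. Windows with at least 50% GC and a CpG ratio of at least 0.6, the composition of a CpG island, made up 859 of the 1866 sites (46.0%, 43.8 to 48.3%). The share was 58.0% (55.6 to 60.4%) for promoter sites with WDR5 and 10.2% for the peaks away from promoters without WDR5. Over 194304 windows of the same length at annotated starts it was 40.6%.

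Short letter matches were counted in the same windows. The GC box GGGCGG, searched on both strands, was present at 43.8% (41.6 to 46.1%) of sites without WDR5, 52.3% (49.9 to 54.7%) of promoter sites with WDR5, and 39.0% of all promoter windows. The letters TATAAA were found at 3.27% of sites without WDR5 and 12.1% of all promoter windows. CCGGAAG, the core of ETS sites, was found at 6.0% against 9.50%, and TAATTA, a core of homeobox sites, at 1.82% against 5.09%. CACGTG, an E-box, was present at 7.66% against 6.79%. Promoter sites with WDR5 gave similar shares, 2.79% for TATAAA, 6.69% for CCGGAAG, 1.28% for TAATTA, and 7.56% for CACGTG. The windows at annotated starts run from 250 bp before to 50 bp after the start, whereas the site windows are centred on peaks, so the positions differ.

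After MS67, few of these sites were called again. An MS67 SS18::SSX peak overlapped 62 of the 1866 sites (3.32%, 2.56 to 4.24%), against 5.81% of all 15141 SS18::SSX peaks. The share was 5.12% (88 of 1720, 4.12 to 6.27%) for promoter sites with WDR5 and 5.04% (412 of 8177, 4.57 to 5.54%) for peaks away from promoters without WDR5. The intervals of the 2 promoter classes overlapped. The order of these classes held in 14 of 15 alternative settings, and it turned when WDR5 peaks were limited to those with −log10 q above 3 and fold above 6, at 4.46% without and 2.54% with WDR5. The MS67 SS18::SSX list held 1175 peaks in all. Its genome-wide coverage, read from the lowest background, was 0.737 fragments per bp against 0.541 with DMSO, a ratio of 1.36. Coverage rises with fragment length as well as with fragment number. The narrowest peak was 136 bp with DMSO and 197 bp with MS67, so this measure does not rank the 2 libraries by fragment number. A site absent from the MS67 list had no value there, and its remaining signal is unknown.

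Sites called again were most frequent among the strongest DMSO peaks. When all SS18::SSX peaks were placed in 5 equal bins of −log10 q, the share of sites without WDR5 that were called again was 0.624% (3 of 481) in the lowest bin, then 1.85%, 1.49%, and 2.80%, and 15.9% (36 of 227, 11.4 to 21.3%) in the highest. Promoter sites with WDR5 gave 17.3% (51 of 295, 13.2 to 22.1%) in the highest bin. The intervals of these classes overlapped in all 5 bins. Within 1 kb, 117 sites (6.27%) had an MS67 peak, so 55 sites without an overlapping peak had one nearby.

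**Figure D2:**
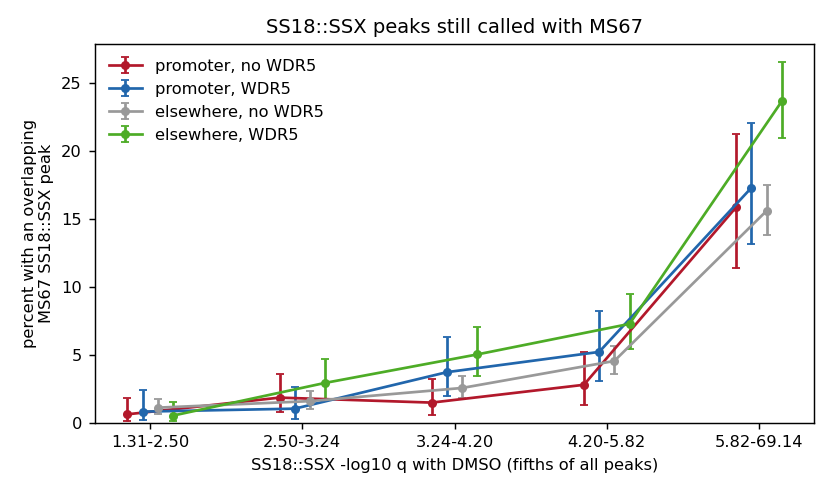
Percent of SS18::SSX DMSO peaks with an overlapping MS67 SS18::SSX peak, by bins of −log10 q holding equal numbers of all peaks, for 4 classes; points are shares, and bars are exact 95% intervals. Sites without WDR5 stay between 0.624% and 2.80% in the lower 4 bins and reach 15.9% in the highest.

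The 62 sites that were called again differed from the other 1804 in several measures that the rule did not use. They lay closer to chromosome ends: 40 of 62 (64.5%, 51.3 to 76.3%) were within 5 Mb of an end, against 537 of 1804 (29.8%, 27.7 to 31.9%). Over all SS18::SSX peaks, the shares near an end were 62.9% of those called again and 34.0% of the others. Only 8 of the 62 (12.9%, 5.74 to 23.9%) had the composition of a CpG island, against 47.2% of the others (13.1% and 23.9% over all SS18::SSX peaks), and their median CpG ratio was 0.373 against 0.590. Their median GC content was close, at 62.7% against 62.2%. Only 1 of the 62 lay between starts on both strands, against 263 of the 1804 (14.6%).

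The local background also moved with being called again. It had a median of 8.43 fragments at the 62 sites and 1.72 at the others, and the summit pileup was 37 against 12 fragments, the width 512 against 196 bp, and the −log10 q 6.68 against 3.24. The fold was lower, at 3.50 against 4.17. Over all SS18::SSX peaks, the medians were 8.15 against 2.93 fragments for background, 36 against 16 for pileup, and 550 against 209 bp for width. There the −log10 q was 7.24 against 3.56 and the fold 3.81 against 4.00. Promoter sites with WDR5 had a background of 3.78 against 1.54, but a fold of 4.70 against 4.45. Within the highest bin of −log10 q, sites without WDR5 near a chromosome end were called again in 27 of 118 cases (22.9%, 15.7 to 31.5%). The rest were called again in 9 of 109 (8.26%, 3.85 to 15.1%). In that bin, sites with a background above its median of 6.13 fragments were called again in 28 of 113 cases (24.8%, 17.1 to 33.8%) and those at or below it in 8 of 114 (7.02%, 3.08 to 13.4%). The separate parts of position, background, and CpG content were not tested.

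**Figure D3:**
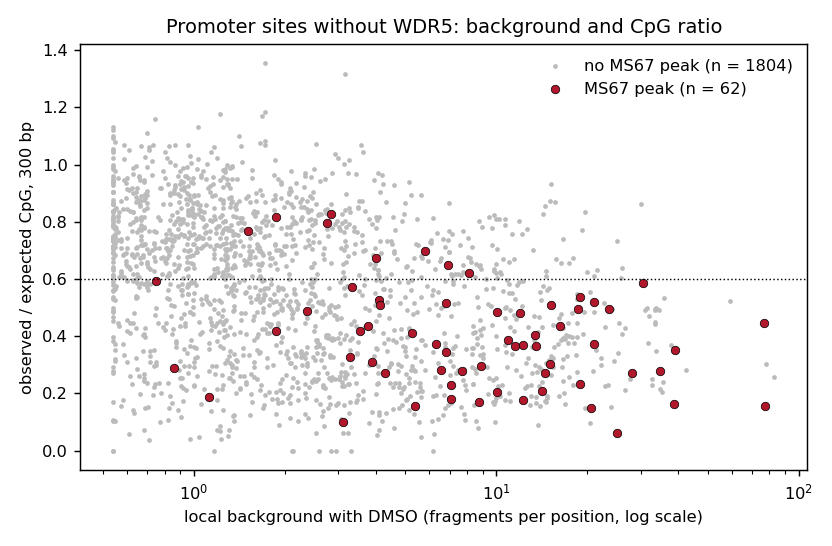
Local background with DMSO in fragments (log scale) against the ratio of observed to expected CpG in 300 bp for the 1866 promoter sites without WDR5; each point is a site, and the dotted line marks a ratio of 0.6. The 62 sites with an MS67 peak (red) lie mostly to the right and below the line, with a median background of 8.43 and a median ratio of 0.373.

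At the sites called in both lists, the fold and −log10 q were usually lower with MS67. The 62 sites lay under 61 distinct MS67 peaks. The fold was lower with MS67 at 46 sites and higher at 16, and the −log10 q was lower at 49 and higher at 13. The median MS67 fold was 3.09 and the median MS67 −log10 q 3.40. The local background was higher with MS67 at 31 of the 62 sites, so it moved in no common direction.

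**Figure D4:**
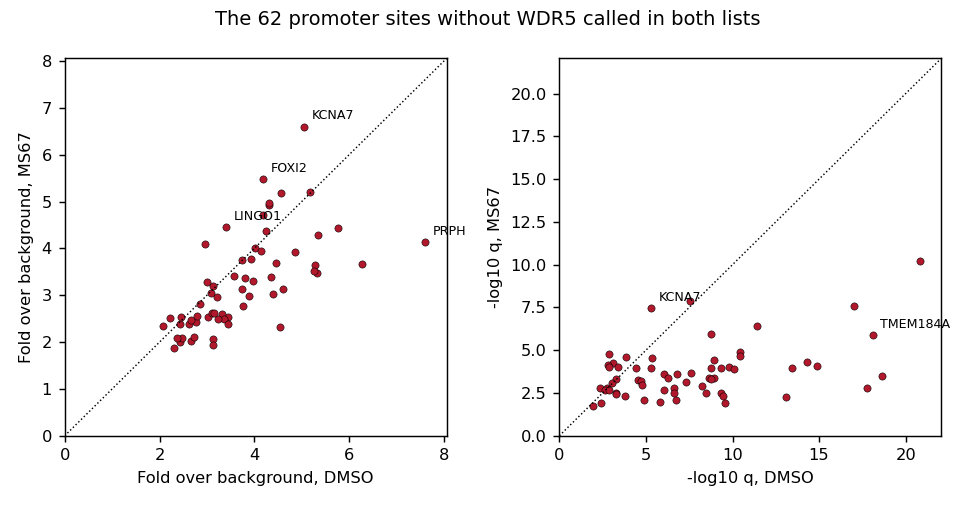
Fold enrichment (left) and −log10 q (right) with DMSO (x axis) and MS67 (y axis) for the 62 promoter sites without WDR5 called in both lists; each point is a site, and the dotted line marks equal values. For fold, 46 points lie below the line and 16 above, with KCNA7 the highest on the MS67 axis at 6.60.

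The site of highest −log10 q was upstream of TPSAB1, which encodes a tryptase of mast cell granules. It lay at chr16:1239781-1240075 in intergenic DNA, with a fold of 14.2, a −log10 q of 31.3, and 39 fragments over a background of 1.82. No MS67 peak overlapped it, although one lay within 1 kb. The tryptase genes form a cluster of near-identical copies, so reads there may be split between copies.

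GRIN1, an NMDA receptor subunit gene, held 4 sites with 2 called again, and CHRNA4, a nicotinic receptor subunit gene, held 4 with none called again.

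Among the 12 sites of highest DMSO −log10 q, 6 were called again. Among these were sites at ADGRA1-AS1, TMEM184A, PRPH, and IRX4. The PRPH site, upstream of a neuronal intermediate filament gene, had a fold of 7.60 with DMSO and 4.13 with MS67, and its −log10 q was 17.8 and 2.78. At TMEM184A, the −log10 q was 18.1 with DMSO and 5.87 with MS67. The site of IRX4, a homeobox gene of the Iroquois family, had a −log10 q of 14.9 and 4.07.

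Other strong sites were not called again. MEX3D, an RNA-binding protein gene, had a fold of 8.54 and a −log10 q of 15.4 with DMSO, and no MS67 peak lay within 1 kb. NKX2-1-AS1 had a −log10 q of 14.7, and HOXA4, an anterior homeobox gene, a fold of 5.45 and a −log10 q of 13.97. Neither had an MS67 peak within 1 kb.

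At a few sites the MS67 peak was the stronger one. KCNA7, a voltage-gated potassium channel gene, went from a fold of 5.06 and a −log10 q of 5.30 to 6.60 and 7.44, with 16 fragments over 2.36 and 19 over 2.03. LINGO1, a neuronal receptor partner, had a fold of 3.41 and then 4.45, and FOXI2, a forkhead factor gene, 4.19 and then 5.47. CDX2, an intestinal homeobox gene, had a fold of 2.62 and then 2.38 but a −log10 q of 3.87 and then 4.62. HTR2C, a serotonin receptor gene, and GCGR, the glucagon receptor gene, had MS67 −log10 q values of 6.41 and 5.97, below their DMSO values of 11.4 and 8.78.

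WDR5 peaks of the MS67 library overlapped 144 of the 1866 sites (7.72%, 6.55 to 9.02%), against 11.2% of all SS18::SSX peaks. The share was 30.2% at promoter sites with WDR5 and 2.56% at the peaks away from promoters without WDR5. The recovered coverage of the MS67 WDR5 library was 0.168 fragments per bp against 0.368 with DMSO. Of the 144 sites, 98 had a WDR5 DMSO peak within 1 kb, 107 had the composition of a CpG island, and 1, at HTR2C, was called again for SS18::SSX. At CEP250, a centrosomal protein gene, the MS67 WDR5 peak had a fold of 9.0 and a −log10 q of 11.3, and the nearest DMSO WDR5 peak was 130 bp from the site. At KLHDC9, the fold was 9.55 and the −log10 q 10.7, with a DMSO WDR5 peak 131 bp away. CTCF, the architectural zinc finger gene, had an MS67 WDR5 peak of fold 6.62 although its nearest DMSO WDR5 peak was 33333 bp away. These 3 genes were picked after their values were seen.

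The sites lay in the promoters of 1956 of the 38912 annotated protein-coding and lncRNA genes (5.03%). The share was 7.27% for protein-coding genes (1457 of 20046) and 2.64% for lncRNA genes (499 of 18866). Promoter sites with WDR5 marked 1850 genes (4.75%), and 219 genes held both kinds. Of the lists of at least 20 genes, homeobox factors and the GATA, KLF, SP, EGR, and GLI families had the highest shares. In a list of 9 genes that the original work followed individually, NTSR1 and RPL7 had a site.

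Homeobox factors pattern the body axis and many organs. The homeobox list of 199 genes also takes in PAX genes, which are named for a paired box. Of the 199, 42 (21.1%, 15.7 to 27.4%) had a site without WDR5 and 25 (12.6%) one with WDR5, with 4 genes in both groups. Their 49 sites had a median −log10 q of 3.60, and 14 had WDR5 within 1 kb. The HOXA cluster on chromosome 7 contributed sites at HOXA4, HOXA5, HOXA6, HOXA7, HOXA9, and HOXA10, and the HOXD cluster at HOXD9, HOXD10, and HOXD11. HOXA4 at 13.97, HOXA6 at 8.24, and HOXD10 at 8.03 had the highest −log10 q of these. PAX2, PAX5, PAX6, and PAX9, which specify kidney, B cells, eye, and pharyngeal structures, also had sites. Of the 42 genes, IRX4, CDX2, and PAX5 kept a peak with MS67.

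Developmental basic helix-loop-helix (bHLH) factors, which drive neurogenesis and myogenesis, had a site at 13 of 69 genes (18.8%, 10.4 to 30.1%). The strongest were NEUROG3, a factor of endocrine and neural progenitors, at a −log10 q of 10.2, OLIG1, an oligodendrocyte factor, at 9.56, and HES6 at 7.05. None of the 16 sites was called again with MS67, which among 16 sites cannot be told apart from the 3.32% of all the sites. The GATA, KLF, SP, EGR, and GLI families had a site at 13 of 62 genes (20.97%, 11.7 to 33.2%), led by SP1 at 7.06, GLIS2 at 5.86, and KLF4 at 5.76. None of their 16 sites was called again, with the same limit. T-box factors had a site at 4 of 17 genes, with the strongest at a −log10 q of 8.42, SOX factors at 3 of 20, and forkhead factors at 6 of 46. ZNF zinc finger genes stood near the 5.03% of all genes, at 29 of 563 (5.15%, 3.48 to 7.31%), with protein-coding genes at 7.27%. Nuclear receptors had a site at 4 of 46 (8.70%). Promoter sites with WDR5 marked 7 of the 69 bHLH genes and 6 of the 62 GATA, KLF, SP, EGR, and GLI genes. They marked 3 of 17 T-box, 2 of 20 SOX, 5 of 46 forkhead, 42 of 563 ZNF, and 7 of 46 nuclear receptor genes.

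Cytosolic ribosomal protein genes carried promoter sites of 1 class. Of 89 genes, 14 (15.7%, 8.88 to 24.98%) had a site without WDR5, and none had a promoter site with WDR5. The count of 0, at the limit of 3 counts, allows a share of up to 3.37%. Promoter sites with WDR5 marked 4.75% of all genes and 6.99% of protein-coding genes. The 14 genes included RPL7, RPL8, RPL31, RPL36, RPL37, RPLP2, RPS4X, RPS14, RPS18, RPS24, and RPSA. Their folds ran from 3.55 at RPSA to 5.77 at RPS4X, and their −log10 q from 1.33 at RPSA to 7.88 at RPL8. The nearest WDR5 DMSO peak was 238 bp away at RPL37 and 62073 bp away at RPL31, with a median of 4295 bp, and at RPL36 and RPL37 a WDR5 peak lay elsewhere in the promoter. MS67 WDR5 peaks overlapped 4 of the sites, those of RPL8, RPL36, and RPLP2 among them. None of the 14 sites was called again for SS18::SSX with MS67, which among 14 sites cannot be told apart from the 3.32% of all the sites. Of the 14 sites, 3 were nearest to the start of another gene, RPL7 to RDH10, RPS18 to VPS52, and RPL36 to MICOS13. Mitochondrial ribosomal protein genes had a site at 5 of 79 (6.33%) and promoter sites with WDR5 at 3.

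Genes of chromatin complexes were also represented. Of 30 SWI/SNF subunit genes, 5 (16.7%) had a site, namely ACTL6A, ACTL6B, SMARCA2, SMARCA4, and SMARCE1. ACTL6B, the neuronal form of the BAF53 subunit, led with a fold of 5.75 and a −log10 q of 6.02. Of 46 Polycomb genes, 7 (15.2%) had a site. PCGF3 had a −log10 q of 7.03 and RNF2, a catalytic subunit that ubiquitinates H2A, 5.93, and EZH2, the H3K27 methyltransferase, 4.44. PCGF1, SCMH1, and MTF2 also had one. Of 20 genes in a list of KMT2 family and complex genes, WDR82, KMT2E, and SETD1A had one, at −log10 q of 3.46, 2.56, and 1.85. The WDR82 site was nearest to the start of another gene, GLYCTK. These 3 lists held 7, 7, and 3 sites, and none was called again with MS67. Among so few sites this cannot be told apart from the 3.32% of all the sites.

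Signaling genes were marked as well. The Hedgehog list had 4 of 20 genes with a site, PTCH1 (the receptor), DISP1 and DISP2 (ligand release), and GLI4. None had a promoter site with WDR5, and among 20 genes this cannot be told apart from the 4.75% of all genes. The FGF list had 7 of 42, among them the ligands FGF4 and FGF20, the receptors FGFR1 and FGFR3, and the targets DUSP6 at a −log10 q of 4.59 and ETV4 at 3.87. The WNT list went the other way, with 8 of 75 genes (10.7%) without WDR5 and 15 with it. Its sites included the ligands WNT3A, WNT5A, WNT7B, and WNT10A, the receptor ROR2, and the secreted inhibitors WIF1 and SFRP2. WNT3A was called again, with a fold of 3.01 and then 3.29. The BMP and TGF-beta list had 7 of 69 genes and the Notch list 4 of 32. Promoter sites with WDR5 marked 5 genes of the FGF list, 6 of the BMP and TGF-beta list, and 4 of the Notch list.

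Neuronal membrane genes had the most sites called again among the lists of protein-coding genes. Of 120 neurotransmitter receptor genes, 14 (11.7%) had a site, and 5 of their 25 sites were called again, at GRIN1, HTR2C, GRM8, and GRIN2C. Of 98 potassium channel genes, 13 (13.3%) had a site, and 4 of their 22 sites, that of KCNA7 among them, were called again. Over all the sites the share was 3.32%. The 4 potassium channel sites belonged to 2 genes, and GRIN1 alone held 2 of the 5 receptor sites, so the sites are not independent. GRM4, a metabotropic glutamate receptor gene, had a −log10 q of 9.82, and GABBR2, a GABA-B receptor gene, 5.15, and neither was called again. Sites at NTSR1, a neurotensin receptor gene, lay at −524 and −953 bp from its start with folds of 2.66 and 2.46 and −log10 q of 5.04 and 3.97, and neither was called again. Axon guidance genes had a site at 10 of 77 and calcium and sodium channel genes at 5 of 41. Promoter sites with WDR5 marked 12 of 120 receptor and 12 of 98 potassium channel genes. They also marked 9 of 77 axon guidance genes and 4 of 41 calcium and sodium channel genes.

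Tissue structure genes and olfactory receptors had sites without WDR5 at shares near or below the 5.03% of all genes, with protein-coding genes at 7.27%. Collagens had a site at 2 of 44 genes, cadherins and protocadherins at 4 of 107 (3.74%), keratins and epithelial junction genes at 4 of 97 (4.12%), and olfactory receptors at 1 of 420 (0.238%). COL26A1 was the strongest of these by −log10 q at 10.1, and PCDH19, a protocadherin gene, reached 9.91. Promoter sites with WDR5 marked 5 of the collagen genes (11.4%), 5 of the cadherin and protocadherin genes, and 5 of the keratin and junction genes. They marked none of the olfactory receptor genes, against 4.75% of all genes. The cell cycle and p53 list had 3 of 25 genes with a site without WDR5 and 6 with a promoter site with WDR5. Replication-dependent histones had 2 of 75, small nucleolar RNA host genes 1 of 28, and SSX and cancer-testis genes 2 of 109. Among lncRNA classes, divergent transcripts stood at 47 of 589 (7.98%), antisense lncRNAs at 87 of 1841 (4.73%), and LINC lncRNAs at 59 of 2263 (2.61%). Over all lncRNA genes the share was 2.64%.

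**Figure D5:**
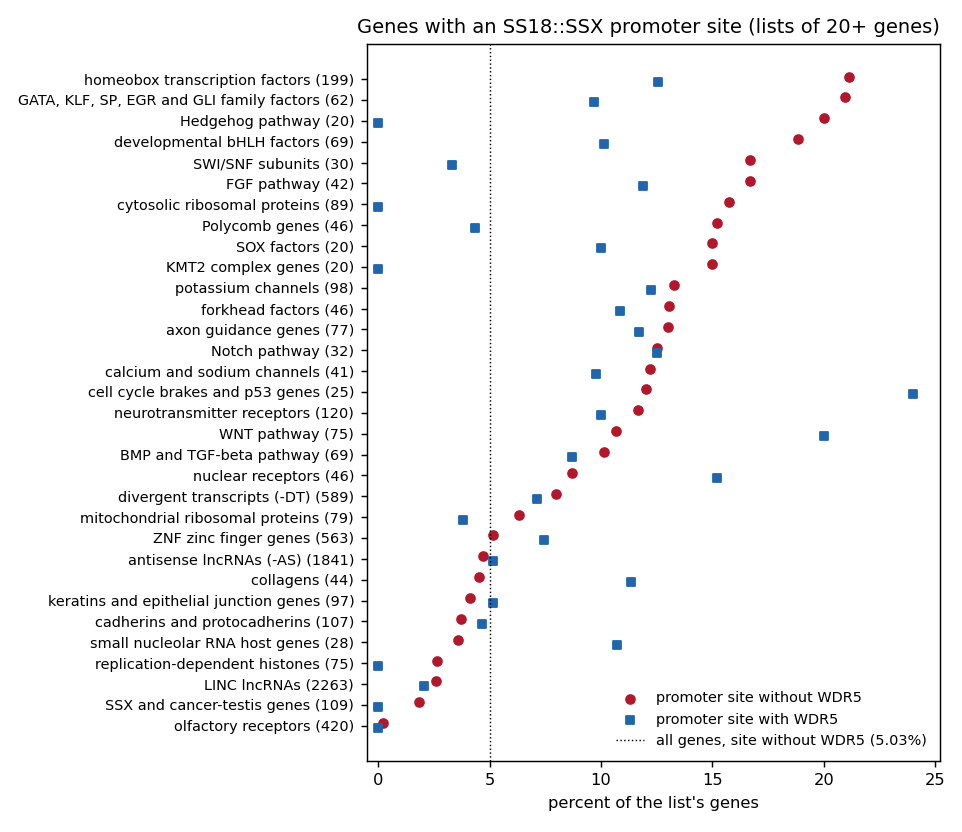
Percent of the genes of each list (number of genes in parentheses) with a promoter SS18::SSX site without WDR5 (red circles) or with WDR5 (blue squares) in DMSO-treated cells, for lists of at least 20 genes; the dotted line is the 5.03% of all genes with a site without WDR5. The homeobox list stands at 21.1%, and cytosolic ribosomal protein genes at 15.7% without WDR5 and 0% with it. Promoter sites with WDR5 marked 4.75% of all genes. Sites without WDR5 marked 7.27% of protein-coding genes and 2.64% of lncRNA genes.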

How the data were processed

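Peak lists of 4 CUT&RUN libraries of HSSY II cells were analysed, 1 for each target (SS18::SSX, WDR5) and treatment (DMSO, or MS67 at 2.5 μM, both for 4 days). Reads were aligned to hg38, and to mm10 for the spike-in, with Bowtie2, duplicates were removed with Picard, and peaks were called with MACS2 on each library. The options of MACS2 and any control library are not given in the sources used here. The authors deposited for each peak its position, its fold enrichment (a ratio in which 1 is added to both the pileup and the background), the −log10 p and −log10 q values, and a score derived from the q-value, which was not used here. The spike-in did not enter these values.

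Overlap meant at least 1 shared base. Promoters used all transcript starts of protein-coding and lncRNA genes in GENCODE 44, and starts of basic transcripts were tried as an addition after seeing the data. Pileup and background at each summit were recovered from the deposited fold and p-value under the Poisson model of MACS2 to within 0.001, and the step was tested on simulated data. Shares have exact Clopper-Pearson intervals at 95%. No test across conditions was possible, and none was run. GC and CpG were counted in 300 bp of hg38 around the peak centre.

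Genes were named by rule: the 12 members of highest DMSO −log10 q, the 12 of highest MS67 −log10 q among those called again, 3 per list, the genes named by the study, and the 3 members on each side of every limit. Some genes that the rule covers are not reported here. Other members of the lists were named after their values were seen. A site takes the name of its nearest start, and a list counts every gene whose promoter holds the site. The members, the 34 lists, and the 16 motifs were chosen with earlier results of these data known. Alternatives covered the WDR5 overlap, peak strength, promoter limits, merging, and the definition of a peak called again. The software was matplotlib 3.10.9, pandas 2.3.3, numpy 2.4.6, and scipy 1.17.1 in Python 3.11.15.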

Additional observations from a re-analysis of the deposited data

How the results depend on the processing

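The number of promoter sites without WDR5, 1866, stayed within 1.5 times under 8 of 13 alternatives. It was 873 when WDR5 within 1 kb removed a site, 3075 with only WDR5 peaks of −log10 q above 3 and fold above 6, 919 with only SS18::SSX peaks of −log10 q above 3 and fold above 3, 357 with −log10 q above 5, and 1107 with 1 start per gene. These changes follow from the peaks or starts that each setting leaves. Starts of basic transcripts gave 1453. The share called again without WDR5, 3.32%, stayed within its interval under 10 of 15 alternatives, and the share with WDR5, 5.12%, under 8 of 15. In pairs without and with WDR5, the values outside were 4.46% and 2.54% with the stricter WDR5 peaks, 11.2% and 13.6% with −log10 q above 5, 2.53% and 6.57% with peaks within 1 kb merged, 6.27% and 8.37% when an MS67 peak within 1 kb sufficed, and 1.02% and 2.97% when the MS67 peak needed −log10 q above 3 and fold above 3. The share with WDR5 alone moved to 7.35% with the SS18::SSX peaks of −log10 q above 3 and fold above 3 and to 4.04% with promoters of 500 bp on either side. The median GC content of 62.3% (61.7 to 62.7%) was 63.0% with the stricter WDR5 peaks, 63.3% with the 500-bp promoters, and 61.3% with 1 start per gene. The cause of the moves in shares and GC content was not tested. No paired analysis was possible because each condition had 1 library. A peak list holds no value below its threshold, so loss of a peak sets no bound on the remaining signal.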

Other observations

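Sites without WDR5 were spread unevenly over chromosomes. Chromosome 19 held 178 (9.54%) against 6.0% of annotated starts, chromosome 20 held 92 (4.93%) against 2.38%, chromosome 16 held 125 (6.70%) against 4.82%, and chromosome X held 31 (1.66%) against 2.91%. Promoter sites with WDR5 gave 8.78% on chromosome 19, 3.26% on 20, 4.65% on 16, and 1.45% on X. Chromosome 16 had the most sites without WDR5 called again with MS67, 8 of its 125, against 3.32% of all the sites. The share was higher on chromosomes 20 (6 of 92) and 21 (2 of 27) and lower on the others.

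Neighbouring SS18::SSX peaks were less frequent than over the whole list. Another SS18::SSX peak lay within 10 kb of 977 sites (52.4%), against 63.0% of all SS18::SSX peaks and 48.4% of promoter sites with WDR5. Near 221 sites (11.8%) lay 5 or more such peaks, against 16.3% and 4.83%. A neighbouring SS18::SSX peak that did overlap WDR5 lay within 1 kb of 253 sites (13.6%). NFATC1, a calcineurin-regulated transcription factor gene, held 5 sites. Their −log10 q ran from 2.04 to 4.89, their local background from 26.1 to 33.7 fragments, and none was called again with MS67.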
